A study of Mus musculus with 9 samples.

Results

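Nucleotide exchange factors of cytosolic HSP70 were followed in mouse testicular peritubular myoid cells after a heat shock. They comprised the 3 HSP110 genes Hsph1, Hspa4 and Hspa4l, the 6 BAG genes Bag1 to Bag6, and Hspbp1. The members were chosen by gene symbol alone, and all 10 were found among the 20717 genes listed, each with values in every library. RNA came from primary C57BL/6J cultures, in which dishes had spent 30 min in a 42 °C water bath and were collected 1 h or 6 h later, beside cells with no treatment. All were kept in DMEM/F12 medium with serum, and no label gives the age of the mice. Each of the 3 groups (1 h after heat, 6 h after heat and untreated control) held 3 libraries. Replicates carry numbers, but no label names the animal or culture behind each, so the p-values given here measure library-to-library spread that may be purely technical. Levels are in FPKM, a unit that corrects for library size and for transcript length, so genes can be set beside each other.

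HSP70 holds unfolded protein tightly while it carries ADP, and an exchange factor pries the ADP out so that ATP can bind and the client is let go. HSP110 proteins are enlarged relatives of HSP70 that act as exchange factors and also hold clients themselves, and with HSP40 proteins they help HSP70 take aggregates apart. In most BAG proteins, though not in all, a shared domain grips the nucleotide-binding part of HSP70. Their other regions send the client to different fates, such as the proteasome (BAG1) or autophagy (BAG3). In muscle, BAG3 together with small heat-shock proteins is known for the turnover of damaged filamin.

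The results turn on Hsph1 and Bag3, the 2 members with the largest changes at 1 h, so the starts of these genes are shown first. Heat-shock factor 1 is known to bind inverted repeats of GAA, here searched as GAANNTTC and TTCNNGAA, each its own reverse complement, and as the overlapping 3-unit forms GAANNTTCNNGAA and TTCNNGAANNTTC. The windows ran from 250 bases before to 50 bases after the start of the transcript (RefSeq, GRCm38.p6). Of the 9 members with such a window, Hsph1 and Bag3 held a match and the other 7 (Hspa4, Hspa4l, Bag1, Bag2, Bag5, Bag6 and Hspbp1) held none. Of all 32851 windows, 15.1% held at least 1 of the 2-unit forms and 0.603% a 3-unit form. Hsph1 had TTCTCGAA at positions -54 to -47 and the 3-unit TTCTGGAAAGTTC at 16 to 28, counting the first transcribed base as 1. The 3-unit match contains both 2-unit forms, TTCTGGAA and GAAAGTTC. Bag3 had GAAGTTTC at 43 to 50, at the edge of its window. A match describes these letters and is not evidence of binding. In the sequences below, read 5′ to 3′ on the strand of the gene, capitals mark the matches. For each gene the 250 bases before the start come first (chr5:149636316-149636565, minus strand, and chr7:128523333-128523582, plus strand), followed by 30 bases with the match after it (chr5:149636279-149636308 and chr7:128523603-128523632).
Hsph1 before the start: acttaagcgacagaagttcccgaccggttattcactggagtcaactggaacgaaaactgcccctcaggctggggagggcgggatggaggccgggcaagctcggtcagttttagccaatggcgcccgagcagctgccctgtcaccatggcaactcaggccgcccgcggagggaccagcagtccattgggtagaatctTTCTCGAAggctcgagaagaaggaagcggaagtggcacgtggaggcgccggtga
Hsph1 site after the start: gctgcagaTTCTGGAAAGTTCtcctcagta
Bag3 before the start: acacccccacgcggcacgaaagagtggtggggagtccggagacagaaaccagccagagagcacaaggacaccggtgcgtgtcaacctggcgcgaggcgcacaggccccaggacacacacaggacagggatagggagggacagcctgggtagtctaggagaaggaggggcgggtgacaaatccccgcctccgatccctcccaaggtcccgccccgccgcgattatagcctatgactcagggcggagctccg
Bag3 site after the start: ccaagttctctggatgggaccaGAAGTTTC

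Each library held an estimated 18800000 to 19800000 reads. At that depth the lowest value of any member, 1.99 FPKM of Bag4, stood for about 190 reads, so counting error was at most 7.3% for every member. The contractile genes Acta2, Myh11, Des, Cnn1 and Tagln, markers of myoid cells, were present in all libraries and summed to 3035 to 3198 FPKM at 1 h, 2645 to 3891 FPKM at 6 h and 3166 to 3744 FPKM in control. Transcripts of other testicular cells were present too. The 7 Sertoli markers summed to 3020 FPKM in control 3 and to 197 to 469 FPKM in the other 8 libraries. Most of each sum was Clu, at 2700 FPKM in control 3 and 175 to 437 FPKM elsewhere. Amh, Fshr and Rhox5 were at most 0.26, 0.09 and 1.64 FPKM in any library. Cldn11, Sox9 and Wt1 had 237, 27.7 and 53.8 FPKM in control 3 and at most 8.23, 15.9 and 15.4 FPKM elsewhere. The 5 macrophage markers summed to 35.2 to 209 FPKM at 1 h, 36.4 to 219 FPKM at 6 h and 30.2 to 75.1 FPKM in control. The 6 Leydig markers summed to 872 to 2138 FPKM. Insl3 had 181 FPKM in control 3, its lowest library, and up to 1607 FPKM elsewhere. Cyp11a1 had 288 to 820 FPKM, Star 42.2 to 211 FPKM and Hsd3b1 33.2 to 188 FPKM, whereas Cyp17a1 and Lhcgr were at most 0.11 and 0.27 FPKM. Germ cell markers summed to at most 8.12 FPKM. The part of these transcripts in the results below was not tested, and in such mixed RNA fewer cells of a type and less RNA per cell cannot be told apart.

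In untreated cells the members spanned a wide range of levels. Bag1, which couples HSP70 to the proteasome through a ubiquitin-like domain, was the highest at 152 ± 11 FPKM (SD, n = 3), and Hspa4 followed at 101 ± 3 FPKM. Both stood among the upper 10% of tested genes, at the 95.5th and 92.7th percentile. Bag6, a scaffold that guards tail-anchored membrane proteins, stood at 71.6 ± 13.9 FPKM and Bag3 at 64.2 ± 4.7 FPKM, and the libraries of these 2 genes overlapped. Bag2, an inhibitor of the ubiquitin ligase CHIP, averaged 37.0 ± 7.6 FPKM and Hsph1 21.5 ± 2.5 FPKM. Hspbp1, Hspa4l and Bag5 stood at 15.5 ± 2.8, 12.4 ± 3.0 and 11.8 ± 0.8 FPKM, with libraries that overlapped between neighbours in this order. Bag4 was the lowest at 4.49 ± 0.53 FPKM. Before heat Hsph1 thus ranked 6 of 10, and Hspa4 supplied most of the HSP110 transcripts. The order at 1 h began with Bag3 (479 ± 64 FPKM) and Hsph1 (370.1 ± 72.9 FPKM), whose libraries overlapped, and went on with Bag1, Hspa4, Bag6 and Bag2, neighbours that did not overlap. The order at 6 h began with Bag1, Hsph1 and Hspa4, and the libraries of Hsph1 overlapped those of both its neighbours.

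**Figure D1:**
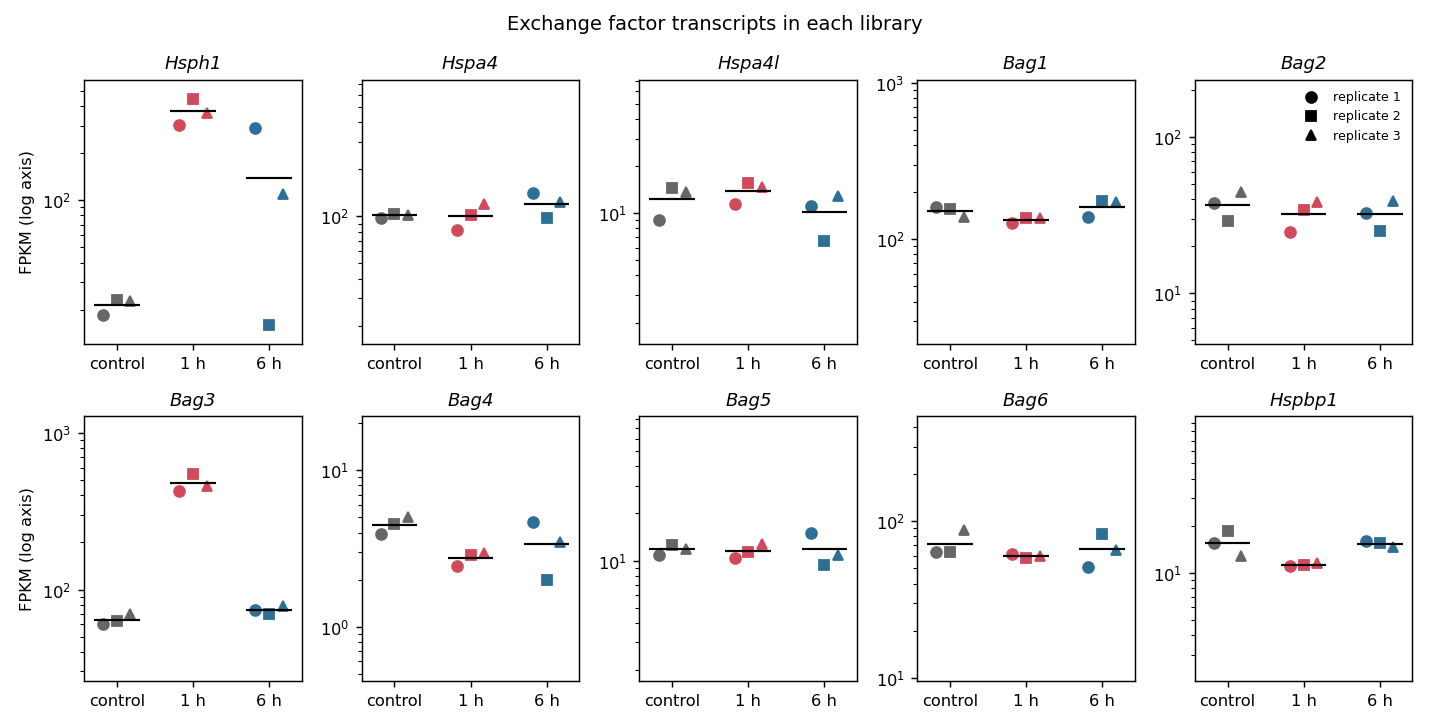
FPKM of the 10 exchange factors in each library on log axes of equal span (control, 1 h and 6 h after heat; each symbol is 1 library, shaped by replicate number, and the line is the group mean). Bag3 is high in all 3 libraries at 1 h and back near control at 6 h, whereas Hsph1 at 6 h spreads from 15.9 to 289 FPKM.

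The first comparison asked which exchange factors differed from control 1 h after heat. Bag3 (NCBI gene 29810, mm10 chromosome 7, 128523583 to 128547179, plus strand) rose. It stood at 425, 549 and 462 FPKM in 1 h replicates 1, 2 and 3, against 60.65, 62.5 and 69.5 FPKM in the controls. The lowest 1 h library was far above the highest control. Its log2 change on the FPKM + 1 scale was 2.87 (SE 0.14, limma adjusted p = 1.5e-05 over 11460 genes), and the ratio of mean FPKM was 7.45. Bag3 was the 1 member of 10 that passed the test, where 0.157% of all genes tested did, all of them higher. By the overlap of libraries 2 members lay wholly above control, beside 4.49% of all genes.

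Hsph1 (NCBI gene 15505, chromosome 5, 149616845 to 149636315, minus strand), the HSP110 gene whose product is also called HSP105, had the largest log2 change of the 10 members but did not pass the test over all genes. It stood at 302, 447 and 361 FPKM in the 1 h libraries, against 18.6, 23.1 and 22.6 FPKM in the controls. The groups did not overlap, and the means differed by a ratio of 17.3. The log2 change was 4.03 with a 95% confidence interval of 2.23 to 5.84, and limma's adjusted p was 0.13. The SE of 0.80 came from a spread shared with the 6 h libraries, where Hsph1 ran between 15.9 and 289 FPKM. With the 1 h and control libraries alone in the fit the SE was 0.18 and limma's adjusted p 0.00027, and leaving out 6 h replicate 2 or 6 h replicate 1 gave an adjusted p of 0.0021 or 0.035. Over all 19 alternatives the adjusted p ran from 0.00027 to 0.5 and passed in 4.

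The other HSP110 genes showed no such difference. Hspa4 (NCBI gene 15525, chromosome 11, 53259814 to 53300479), which is constitutive in most tissues, had 81.25, 102 and 119 FPKM at 1 h, against 98.0, 103 and 103 FPKM in control. The 1 h libraries lay on either side of the narrow control range. Its log2 change was -0.025, with a 95% confidence interval of -0.44 to 0.39 (limma adjusted p = 0.95). Hspa4l (NCBI gene 18415, chromosome 3, 40745613 to 40790365), known from knockout mice for a role in male fertility, had 11.47, 15.7 and 14.7 FPKM at 1 h, against 8.99, 14.4 and 13.7 FPKM in control, with overlapping groups and a log2 change of 0.18 (95% confidence interval -0.40 to 0.76, limma adjusted p = 0.76). The germ cell marker Ddx4 stood at 7.14 FPKM in 1 h replicate 2, the library with the highest Hspa4l, where the other 4 germ cell markers were at most 0.44 FPKM. Ddx4 was next highest in 6 h replicate 2, at 4.42 FPKM, where Hspa4l was at 6.62 FPKM, the lowest of the 9 libraries. The part of germ cell transcripts in the Hspa4l values was not tested.

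Within each library Hsph1 could be set against Hspa4 without regard to scaling. The ratio of Hsph1 to Hspa4 FPKM was 3.72, 4.39 and 3.03 at 1 h, against 0.190, 0.224 and 0.220 in control. The groups did not overlap, and the exact two-sided permutation test of the log2 ratio gave p = 0.1, the smallest that 3 against 3 libraries allow. Over the 9 ratio tests made (3 ratios in 3 comparisons) its Benjamini-Hochberg adjusted permutation p was 0.18. Hsph1 made up 76.2% ± 3.1 of the summed HSP110 FPKM at 1 h and 15.8% ± 0.9 in control (SD, n = 3 each), so Hsph1 led the HSP110 transcripts at 1 h and Hspa4 in control. At 6 h Hsph1 exceeded Hspa4 in replicate 1 alone, with ratios of 2.06, 0.162 and 0.887 in replicates 1, 2 and 3.

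Among the remaining BAG genes and Hspbp1 no member passed the test at 1 h. Bag4 (NCBI gene 67384, chromosome 8, 25764538 to 25785209), also known as a silencer of TNF receptor death domains, had 2.44, 2.86 and 2.97 FPKM at 1 h, against 3.94, 4.52 and 5.00 FPKM in control, a log2 change of -0.54 (95% confidence interval -1.06 to -0.03, limma adjusted p = 0.45). Hspbp1 (NCBI gene 66245, chromosome 7, 4660521 to 4684963), an exchange factor built of armadillo repeats, had 11.04, 11.2 and 11.6 FPKM at 1 h, against 15.4, 18.4 and 12.7 FPKM in control, a log2 change of -0.41 (95% confidence interval -0.75 to -0.07, limma adjusted p = 0.43). Both genes had every 1 h library below every control.

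Bag1 and Bag6 also lay wholly below control at 1 h, by smaller amounts. Bag1 had 127 to 137 FPKM at 1 h, against 140 to 160 FPKM in control, and Bag6 had 58.1 to 61.5 FPKM at 1 h, against 63.4 to 87.7 FPKM in control, with the highest value in control 3, the library with the high Sertoli markers. Their log2 changes were -0.19 and -0.24 (limma adjusted p = 0.60 and 0.62). The 4 members lower without overlap compare with 21.4% of all genes, as the median of all genes tested was itself -0.168 on the log2 scale. After median-of-ratios scaling, which brought that median to -0.014, Bag4 alone of the 10 members still lay wholly below control, beside 6.99% of all genes, and 9.11% lay above. Relative to the all-gene median Bag4 was at -0.38, Hspbp1 at -0.24, Bag6 at -0.07 and Bag1 at -0.02 on the log2 scale. Bag2 and Bag5, a protein with several BAG domains, had overlapping groups and log2 changes of -0.19 (95% confidence interval -0.71 to 0.33) and -0.03 (-0.44 to 0.37), and that of Bag5 changed sign with scaling. Over the 10 members the median log2 change was -0.11.

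**Figure D2:**
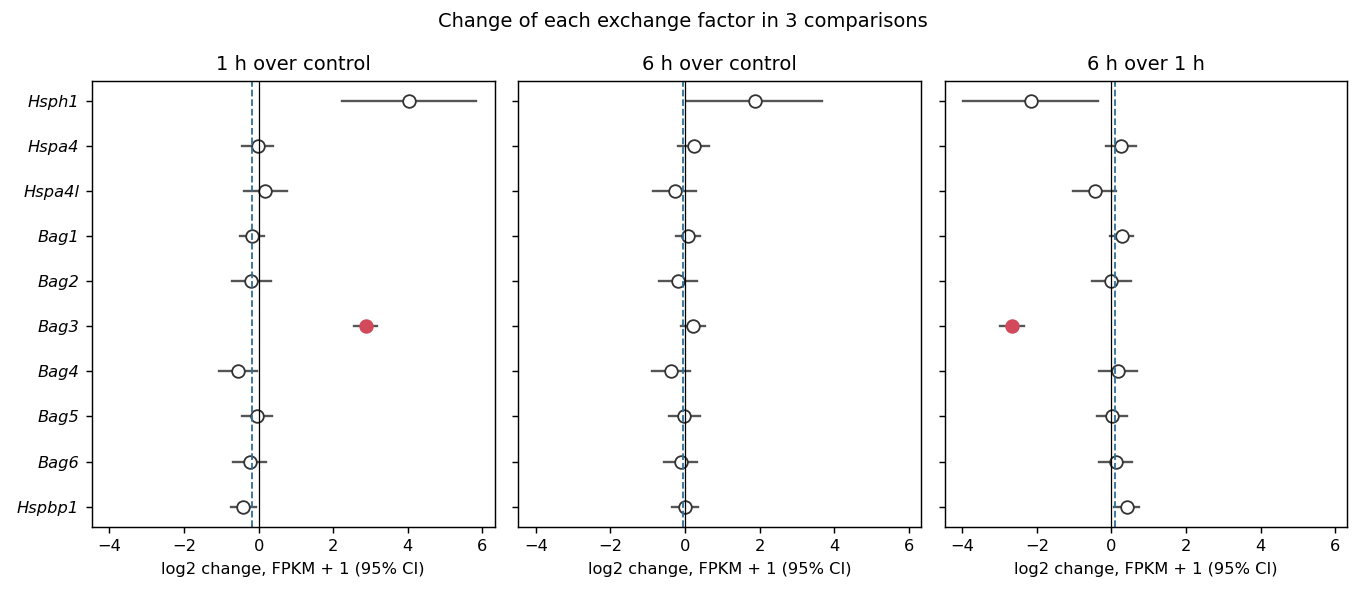
Log2 change of each exchange factor on the FPKM + 1 scale (points) with its 95% confidence interval (bars) for 1 h over control, 6 h over control and 6 h over 1 h; filled points passed limma's test at an adjusted p below 0.05, and the dashed line is the median of all genes tested. Bag3 passes at 1 h (2.87) and at 6 h against 1 h (-2.67), and Hsph1 has the widest intervals in all 3 panels.

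The second comparison asked which exchange factors differed from control 6 h after heat. No member passed the test and no gene at all did (0.0% of those tested), while 1 member, Hsph1, and 4.62% of all genes had an unadjusted p below 0.05. Bag3 had 74.2, 70.2 and 78.2 FPKM at 6 h, against 60.65, 62.5 and 69.5 FPKM in control. Every 6 h library was above every control, which held for 1.89% of all genes, and no member lay wholly below control, as 5.32% of all genes did. The log2 change of Bag3 was 0.21 (95% confidence interval -0.12 to 0.53, limma adjusted p = 0.88). Of the excess over control that Bag3 had at 1 h, 2.41%, 1.44% and 3.38% were present in 6 h replicates 1, 2 and 3.

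Hsph1 gave a different picture at 6 h in each library. It stood at 289, 15.9 and 110 FPKM in 6 h replicates 1, 2 and 3, against 18.6, 23.1 and 22.6 FPKM in control. Replicate 1 nearly reached the lowest 1 h library, replicate 3 lay between the groups and replicate 2 lay below every control. As a share of the 1 h excess these values were 76.6%, -1.6% and 25.4%. The log2 change against control was 1.87 (95% confidence interval 0.06 to 3.67, limma adjusted p = 0.88), 0.95 without 6 h replicate 1 and 3.003 without 6 h replicate 2. The ratio of Hsph1 to Bag3 FPKM was 3.89, 0.226 and 1.40 at 6 h, against 0.307, 0.370 and 0.325 in control, so the order of the 2 transcripts was opposite in replicate 2 and in replicates 1 and 3. The exact two-sided permutation test of the log2 ratio gave p = 0.4. At 1 h the ratio was 0.711, 0.814 and 0.783, above each control (exact permutation p = 0.1). The ratio of Bag3 to Bag1, the remaining pair tested, averaged 3.59 ± 0.38 at 1 h, 0.464 ± 0.070 at 6 h and 0.426 ± 0.064 in control (exact permutation p = 0.1 for 1 h against control). For both ratios at 1 h the Benjamini-Hochberg adjusted permutation p was 0.18, and with 0.1 as the smallest p possible no ratio could pass. Each pair held Hsph1 or Bag3, the members with the largest changes at 1 h, so these tests add no separate support.

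The other 8 members overlapped control at 6 h. Hspa4 had 140, 97.8 and 124 FPKM at 6 h, against 98.0 to 103 FPKM in control, with replicate 2 the lowest again (log2 change 0.23, 95% confidence interval -0.18 to 0.64). After median-of-ratios scaling Hspa4 and Bag3 lay wholly above control, as 2.98% of all genes did, and no member lay wholly below it, beside 4.21% of all genes. Hspa4l and Bag4 also had their lowest 6 h value in replicate 2, at 6.62 and 1.99 FPKM, and Bag6 and Bag1 their highest, at 82.6 and 176 FPKM. The log2 changes of these 4 lay between -0.37 and 0.08, all within the spread of the libraries. Hspbp1 had 14.5 to 15.9 FPKM at 6 h, against 12.7 to 18.4 FPKM in control, a log2 change of -0.01 (95% confidence interval -0.35 to 0.34). Bag2 and Bag5 had log2 changes of -0.20 and -0.02.

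The third comparison set 6 h against 1 h directly. Bag3 fell, with 70.2 to 78.2 FPKM at 6 h, against 425 to 549 FPKM at 1 h, and a log2 change of -2.67 (SE 0.14, limma adjusted p = 3.8e-05). It was the 1 member of 10 that passed, where 0.279% of all genes did, all of them lower. Hsph1 also lay wholly below 1 h, as 4.97% of all genes did, with a log2 change of -2.17 (95% confidence interval -3.98 to -0.36, limma adjusted p = 0.35). That value was -3.08 without 6 h replicate 1 and -1.03 without 6 h replicate 2. Hspbp1 was higher at 6 h than at 1 h without overlap, at 14.5 to 15.9 FPKM at 6 h against 11.04 to 11.6 FPKM at 1 h (log2 change 0.41, limma adjusted p = 0.36), and kept this separation after median-of-ratios scaling. Bag1 was likewise higher, at 138 to 176 FPKM at 6 h against 127 to 137 FPKM at 1 h, but overlapped after that scaling. The scaling also put Hspa4l wholly below 1 h, beside Hsph1 and Bag3, where 9.16% of all genes lay. Of all genes 15.2% lay wholly above 1 h before scaling and 8.89% after it. The 6 h comparisons share the control or the 1 h libraries with the first, so they are not independent of it.

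Most of the members are known to act on HSP70, so the summed FPKM of the members, Bag6 included, was set against that of HSP70. The HSP70 sum took Hspa8, the constitutive HSP70, and the inducible Hspa1a and Hspa1b. Hspa1a and Hspa1b are near-identical copies whose reads may be divided wrongly between them, but their sum does not depend on that division. The HSP70 sum was 6905 ± 1104 FPKM at 1 h and 1509 ± 222 FPKM in control (SD, n = 3 each). The 6 BAG genes together came to 718 ± 71 FPKM at 1 h and 341 ± 15 FPKM in control, and as a share of the HSP70 sum to 10.48% ± 0.75 at 1 h and 23.1% ± 4.6 in control. HSP110 came to 485 ± 85 FPKM at 1 h and 135 ± 8 FPKM in control, and to 7.01% ± 0.12 of HSP70 at 1 h and 9.10% ± 1.61 in control. Exchange factor transcripts were thus higher in sum at 1 h but lower per HSP70 transcript. The higher sums rested on Hsph1 (370 FPKM at 1 h, 21.5 FPKM in control) and Bag3 (479 and 64.2 FPKM). In the share per HSP70, for BAG as for HSP110, each 1 h library lay below each control. These are sums over chosen members and are given without a test.

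At 6 h the shares per HSP70 parted. BAG genes came to 26.0%, 19.75% and 26.4% of the HSP70 sum in 6 h replicates 1, 2 and 3, against 10.0% to 11.3% at 1 h, and the 6 h values lay within the control range of 19.3% to 28.2%. HSP110 came to 36.3%, 6.51% and 17.6% at 6 h, against 6.88% to 7.11% at 1 h. The 6 h mean of 20.2% was 12.1% without 6 h replicate 1 and 27.0% without 6 h replicate 2. Replicates 1 and 3 thus held more HSP110 per HSP70 transcript than any control (8.10% to 10.96%) and replicate 2 less than any. Bag3 was 9.63% to 14.0% of the summed FPKM of the 10 members at 6 h, against 37.9% to 40.2% at 1 h.

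**Figure D3:**
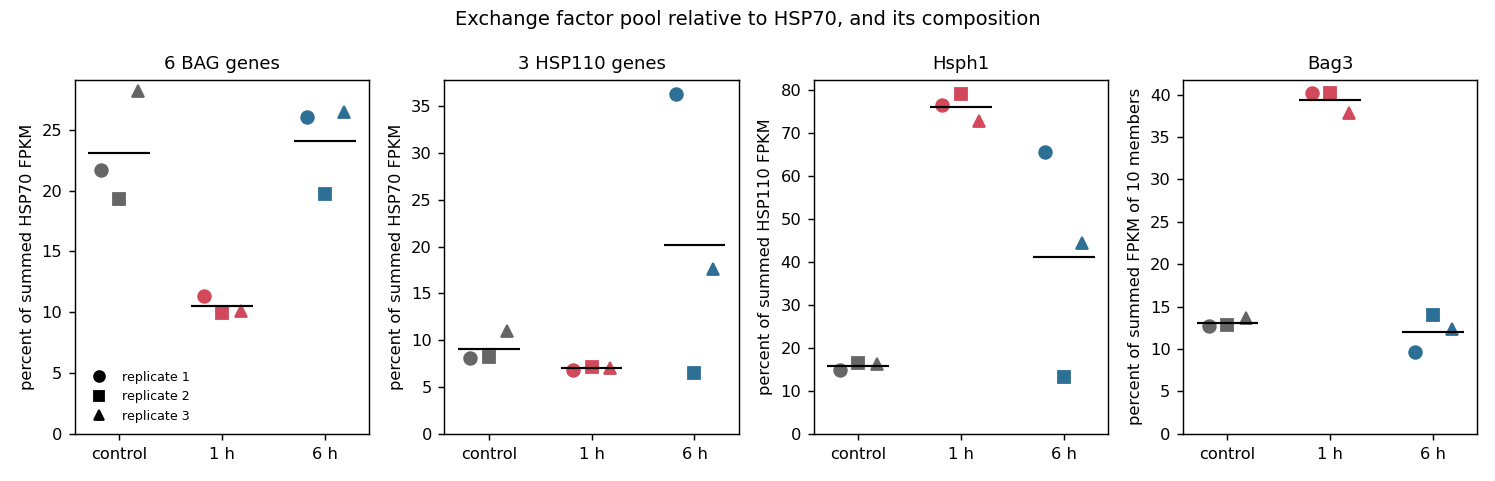
From left, summed FPKM of the 6 BAG genes and of the 3 HSP110 genes as a percent of the summed FPKM of Hspa8, Hspa1a and Hspa1b, Hsph1 as a percent of HSP110, and Bag3 as a percent of all 10 members (symbols are libraries, lines are group means). The BAG share is lowest at 1 h (10.48% on average), and the HSP110 share ranges from 6.51% to 36.3% at 6 h.

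The genes whose pattern over the 9 libraries was most like that of Hsph1 and of Bag3 were found by the root mean square difference in log2(FPKM + 1) change from the control mean. Closest to Hsph1 was Dnaja4, an HSP40 co-chaperone, at 0.27 log2 units, followed by the small heat-shock gene Hspb1 at 0.76. Dnaja4 had 122, 4.85 and 35.9 FPKM in 6 h replicates 1, 2 and 3, against 99.4, 151 and 79.2 FPKM at 1 h. Hspb1 had 2484, 202 and 804 FPKM at 6 h, against 1047, 1678 and 1629 FPKM at 1 h. The next genes, Arc, Tnfsf18 and Tnfaip6, were farther off at 1.15, 1.23 and 1.28. All 5 shared with Hsph1 the order of the 6 h libraries, replicate 1 above replicate 3 above replicate 2, as did Dnaja1, Chac1 and Ch25h named below. As the 6 h libraries were part of the measure that picked the 5, this order is no separate support. The share of all genes with it was not counted. Arc, Tnfsf18 and Tnfaip6 were lower than at 1 h in every 6 h library.

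Closest to Bag3 were Tnfsf18 at 0.41, Chac1 at 0.48, Has1 at 0.52, the HSP40 gene Dnaja1 at 0.54 and Ch25h at 0.62. Dnaja1 had 182.4, 100.2 and 124 FPKM at 6 h, against 444, 539 and 538 FPKM at 1 h. All 5 were high in each 1 h library and had their highest 6 h value in replicate 1, whereas the 3 libraries of Bag3 at 6 h differed by at most 8.05 FPKM. Hsph1 and Bag3 lay 1.51 log2 units from each other. The measure takes genes of the same size of change on the log2(FPKM + 1) scale, which understates changes of low genes. Tnfsf18 had 0.30 to 0.72 FPKM in control and 10.75 to 17.9 FPKM at 1 h. Has1 had at most 0.80 FPKM in control and 5.89 to 13.4 FPKM at 1 h. The libraries are shared by all genes, so the measure describes likeness and no more.

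**Figure D4:**
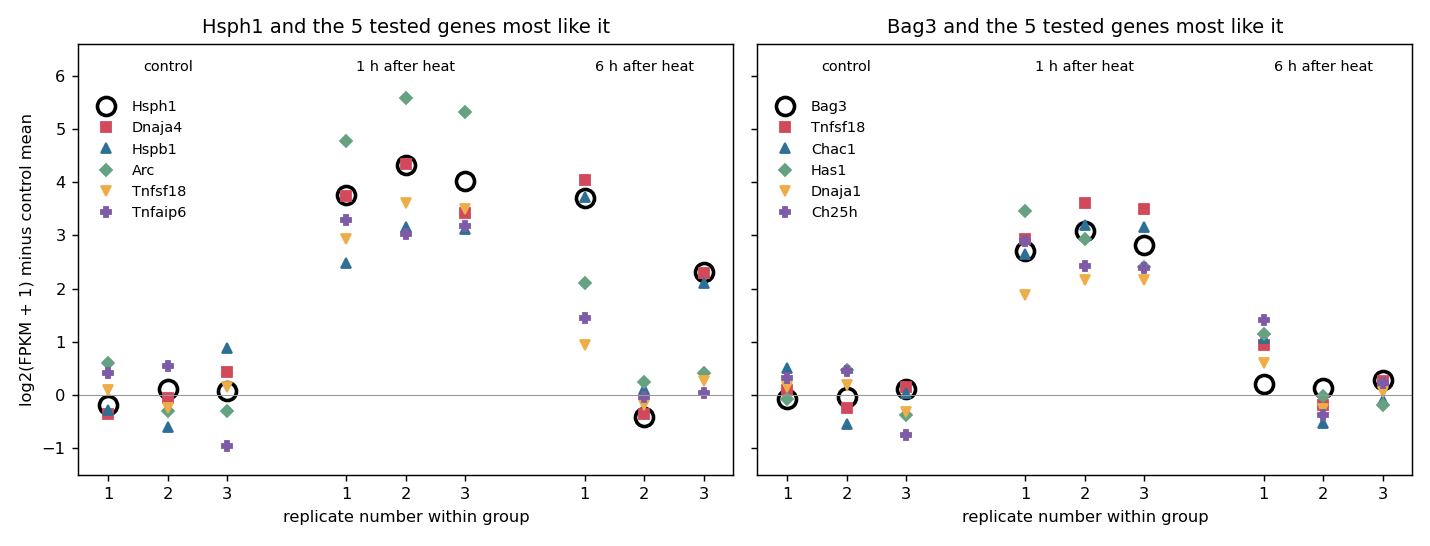
Log2(FPKM + 1) minus the control mean in each of the 9 libraries for Hsph1 (left, open circles) and Bag3 (right, open circles) and the 5 tested genes with the smallest root mean square difference from each. At 6 h Dnaja4 and Hspb1 follow Hsph1 through its high, low and middle libraries, and Bag3 stays near 0 in all 3.

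Partners of the exchange factors were counted from fixed lists. Of all genes tested, 10.8% at 1 h, 4.62% at 6 h and 11.6% at 6 h against 1 h had an unadjusted p below 0.05, the background for such counts below. At an adjusted p below 0.05 limma called 0.157% of all genes at 1 h, 0.0% at 6 h and 0.279% at 6 h against 1 h. Of 10 HSP70 proteins tested, 2 passed limma's test, Hspa1a (log2 change 7.14 at 1 h) and Hspa1b (6.47). Both rose at 1 h and fell at 6 h against 1 h. At an unadjusted p below 0.05 there were 4 at 1 h, 2 at 6 h and 4 at 6 h against 1 h. The median log2 change at 1 h was 0.11, where that of all genes was -0.168. Hspa8 had 3320 ± 422 FPKM at 1 h and 1476 ± 212 FPKM in control (log2 change 1.17, limma adjusted p = 0.14). Of 12 other cytosolic HSP70 co-chaperones, 3 passed limma's test, with a rise at 1 h and a fall at 6 h against 1 h. All 3 were of the HSP40 family: Dnajb1 (log2 change 4.49 at 1 h), Dnajb4 (2.13) and Dnaja1 (2.07). At an unadjusted p below 0.05 there were 4 at 1 h, 1 at 6 h and 3 at 6 h against 1 h. Dnaja4 of the same family did not pass, with 79.2 to 151 FPKM at 1 h and 4.80 to 9.05 FPKM in control. Its log2 change at 1 h was 3.84 (SE 0.87, limma adjusted p = 0.19). Stip1, which hands clients to HSP90, had 171 ± 10 FPKM at 1 h and 138 ± 28 FPKM in control, and Stub1, the gene of CHIP, had 47.9 ± 0.1 FPKM at 1 h and 61.4 ± 9.8 FPKM in control (limma adjusted p = 0.51 and 0.50). No exchange factor of another compartment passed limma's test. Of Hyou1 and Sil1 of the endoplasmic reticulum and Grpel1 and Grpel2 of mitochondria 0 of 4 did in any comparison (0 at 1 h, 0 at 6 h and 1 at 6 h against 1 h at an unadjusted p below 0.05), with log2 changes at 1 h of 0.12, 0.12, -0.19 and -0.32.

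No partner of BAG3 passed limma's test in any comparison (0 of 15, with 3 at 1 h, 2 at 6 h and 2 at 6 h against 1 h at an unadjusted p below 0.05), with a median log2 change of 0.02 at 1 h. Hspb8, the small heat-shock protein that forms a complex with BAG3, had 189 ± 24 FPKM at 1 h and 100.3 ± 22.6 FPKM in control (log2 change 0.92, limma adjusted p = 0.13), and the autophagy receptor Sqstm1 had 488 ± 34 FPKM at 1 h and 363 ± 42 FPKM in control (log2 change 0.43, limma adjusted p = 0.42). Hspb1, described above for its likeness to Hsph1, had 1451 ± 351 FPKM at 1 h and 207 ± 119 FPKM in control. Its libraries ran from 1047 to 1678 FPKM at 1 h and from 123 to 343 FPKM in control. The log2 change was 2.92 (SE 0.77, limma adjusted p = 0.28). As for Hsph1, that SE came from a spread shared with the 6 h libraries, which ran from 202 to 2484 FPKM. Cryab, a small heat-shock protein abundant in muscle, was high in both groups, at 1288 ± 287 FPKM at 1 h and 1004 ± 224 FPKM in control. Synpo2, which links BAG3 to filamin in muscle, averaged 0.74 ± 0.51 FPKM at 1 h and 0.55 ± 0.40 FPKM in control. Of 6 BAG6 partners tested 0 passed limma's test, and 3 had an unadjusted p below 0.05 at 1 h, 0 at 6 h and 1 at 6 h against 1 h. Their median log2 change at 1 h was -0.37, where that of all genes was -0.168, and the values of Ubl4a, Get4, Sgta, Rnf126, Asna1 and Wrb ran from -0.64 to -0.28. Asna1, the ATPase that takes tail-anchored proteins over from this complex, had 56.4 ± 1.3 FPKM at 1 h and 69.2 ± 7.3 FPKM in control. Of 7 partners of other BAG proteins 0 passed limma's test, with 0 at 1 h, 2 at 6 h and 1 at 6 h against 1 h at an unadjusted p below 0.05, and of 2 heat-shock factors 0 passed, with 0, 0 and 1 in the same order. Tnfrsf1a, the TNF receptor that BAG4 binds, had 81.0 ± 6.5 FPKM at 1 h and 75.4 ± 6.6 FPKM in control. Hsf1, the main inducer of heat-shock genes, had 16.7 ± 0.1 FPKM at 1 h and 19.5 ± 0.9 FPKM in control.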

How the data were processed

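The authors deposited 1 table with an FPKM value per gene and library, to 2 decimals per the file headers. It also holds the authors' log2 fold changes and DEGseq q-values per the file headers. Tools named, per the submitters' processing notes, are RSEM 1.2.12, HISAT2 2.0.4 and Bowtie2 2.2.5, with the build mm10. Which step each did is not given in the sources used here. FPKM are shares of a library, so large rises elsewhere lower a gene's value. None of the 10 members overlaps another listed gene, and at most 0.4% of the 50-base words of any member occur in another GENCODE transcript.

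Reads per library were estimated from low FPKM values of transcripts of 400 to 1200 bp (offset 35 bp), of which 86.3% to 92.8% lay within 0.2 of a whole read, where chance gives 40%. The estimate served for depth and counting error only, and counts were not recovered for every gene and not tested. The filter asked for 1 FPKM or more in 3 or more libraries and left 11460 of 17559 genes with values, all 10 members among them. On the log2(FPKM + 1) scale, limma 3.58.1 under R 4.3.3 fitted all 9 libraries with 3 group means, no block and a variance that may follow the mean. Tests were two-sided, with Benjamini-Hochberg adjustment over all genes and calls at an adjusted p below 0.05. This scale understates changes of low genes. The script was tested on simulated data. Alternatives were other pseudocounts, filters, fits, scalings and left-out libraries. Gene coordinates are those of the deposited table, and promoter windows those of RefSeq on GRCm38.p6, the assembly of mm10.

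Control and 1 h libraries of the same replicate number deviated together (correlations 0.194, 0.149 and 0.262 across genes), so that comparison was also fitted with a block. The pairing comes from these data and not from the labels. Genes named are the members, the 5 genes most like Hsph1 and Bag3, and, of each partner list, up to 4 members that passed and the most abundant. Other genes named from the lists were chosen after their values were seen. The members and lists were chosen with earlier results of these data known.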

Additional observations from a re-analysis of the deposited data

Results flagged for a closer look

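Bag3 was marked because 6 h and 1 h differed in the test that sets them against each other. Its log2 change at 6 h against 1 h was -2.67 (limma adjusted p = 3.8e-05), and all 3 libraries at 6 h lay below all 3 at 1 h. The same test for Hsph1 gave -2.17 with a limma adjusted p of 0.35.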

How the results depend on the processing

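Bag3 passed at 1 h and at 6 h against 1 h under all 19 alternatives, with log2 changes of 2.77 to 3.05 and -2.79 to -2.56. Members called at 1 h numbered 1 as reported and 2, Hsph1 in addition, with only the 2 groups compared in the fit and with control 3 and 6 h replicate 2 both left out. Leaving out 1 library gave 1 to 2 members at 1 h, 0 to 0 at 6 h and 1 to 1 at 6 h against 1 h. With the replicate block the members called were 1, 0 and 1, and the block changed no member's call; genes called were 15, 0 and 23. Genes called at 1 h were 18 as reported, 10 with no filter, 47 with only the 2 groups compared in the fit, 31 with quantile normalization and 8 to 52 with 1 library left out. At 6 h they were 0, and 0 to 25 with 1 library left out. At 6 h against 1 h they were 32 as reported, 55 with quantile normalization and 8 to 104 with 1 library left out. Same-numbered libraries at 6 h did not deviate together (correlations -0.35 to 0.041).

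Changes of sign were found for members that were never called. With median-of-ratios scaling they were Hspa4 at 1 h (0.15), Bag5 at 1 h (0.13), 6 h (0.027) and 6 h against 1 h (-0.10), Hspbp1 at 6 h (0.04) and Bag6 at 6 h against 1 h (-0.005). With quantile normalization they were Bag5 (0.129, 0.075 and -0.054 in the same order) and Hspbp1 at 6 h (0.075). With control 3 and 6 h replicate 2 both left out they were, at 6 h, Hspa4l (0.057), Bag1 (-0.039), Bag2 (0.11) and Bag5 (0.12), and at 6 h against 1 h Bag2 (0.16) and Bag6 (-0.05). With 1 library left out the ranges were, at 1 h, -0.15 to 0.12 for Hspa4, -0.021 to 0.30 for Hspa4l and -0.11 to 0.036 for Bag5, at 6 h, -0.19 to 0.12 for Bag5, -0.29 to 0.058 for Bag6 and -0.13 to 0.12 for Hspbp1, and at 6 h against 1 h, -0.18 to 0.16 for Bag2, -0.035 to 0.42 for Bag4, -0.16 to 0.15 for Bag5 and -0.05 to 0.30 for Bag6. The cause was not tested. Bag4 was not tested with the filter of 5 FPKM. With 3 libraries a group, small differences could not be resolved, whatever the depth. Leaving out a library, added after the data were seen, gave an HSP110 share of the HSP70 sum at 6 h of 12.08% to 26.98%, around 20.16% as reported.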

Other observations

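In the authors' deposited table Hsph1 had log2 changes of 4.11 for 1 h over control, 2.67 for 6 h over control and -1.44 for 6 h over 1 h, and Bag3 2.90, 0.21 and -2.69. With limits of 0.001 on the q-value and 2-fold on the change, the authors' deposited table lists Hsph1 in all 3 comparisons, Bag3 at 1 h over control and at 6 h over 1 h, and no other member. For Hsph1 at 6 h that entry rests on libraries of 289, 15.9 and 110 FPKM.

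Park2, the gene of parkin and a known partner of BAG5, was picked after its values were seen. It had 0.16, 309 and 201 FPKM in 6 h replicates 1, 2 and 3, against 0.71, 0.53 and 0.70 FPKM in control (log2 change 4.66, limma adjusted p = 0.88), and at most 3.51 FPKM at 1 h. Bag5 itself had 15.0, 9.42 and 10.9 FPKM in 6 h replicates 1, 2 and 3, against 10.9 to 12.6 FPKM in control.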
